A study of Caenorhabditis elegans with 18 samples.

Results

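The comparison described here sets the daf-16 mutant of the nematode Caenorhabditis elegans against the wild type after heat, 4 of the 18 samples of the series. The control animals were N2, the standard laboratory wild type. The mutants were strain CF1038, genotype daf-16(mu86). Both groups were whole day 1 adults, grown from synchronised larvae on plates with E. coli OP50-1. Both groups were held at 35 °C for 1 h in a waterbath, and had 2 h at 20 °C before collection. The series also holds both strains kept at 20 °C and strain RB711, genotype pqm-1(ok485), at both temperatures. The labels give 3 samples for each of the 6 groups. The libraries labelled replicate 2 and replicate 3 of each group were used, since the names in the table's header may stand 1 column too early, and these libraries keep their group whether they do or not. Each genotype is 1 strain, and its outcrossing is not given in the sources used here. The labels call the replicates biological and say no more of their origin, so the p-values below measure the spread between these libraries. RNA was taken from populations of whole worms, and fewer cells of a type cannot be told apart from less RNA per cell.

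DAF-16 is the worm's FOXO transcription factor. Insulin-like signalling through the receptor DAF-2 and the kinases AKT-1 and AKT-2 keeps it in the cytoplasm, and stress, heat included, can bring it into nuclei, where it raises genes of stress resistance, detoxification and metabolism. Genes that DAF-16 is known to raise are called class I, and genes that are known to be higher when it is lost are called class II. PQM-1, a zinc finger protein, is known to be associated with the class II genes, and heat shock factor HSF-1 drives the chaperone response to heat.

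The deposited values are estimated counts per transcript. The heated N2 libraries held 22538458 and 33399557 counts in genes, and the heated daf-16 libraries 18650463 and 22195080. The mutated gene was examined first. The mu86 strain still gave reads for daf-16, at 102 and 112 CPM in N2 (counts per 1000000, scaled by the composition factors of edgeR) and 90 and 97.6 CPM in the mutant. These values are of the transcript with the highest mean, which did not pass the test (log2 fold change -0.19 ± 0.10 SE, adjusted p 0.378, edgeR quasi-likelihood test with Benjamini-Hochberg adjustment over all genes tested). With the longest transcript in its place the value was 0.23, so the sign depended on the transcript taken. The transcripts of the gene did differ. A row of the table for 1 daf-16 transcript held 1750 and 2858 counts in N2, against 2455 and 3829 in the row of another transcript, a shortfall of 28.7 and 25.4%. In the mutant libraries the same rows held 1599 and 2118 counts against 1641 and 2160.5, a shortfall of 2.56 and 1.97%. The mean shortfall was 27 ± 2.37% (SD, n = 2) in heated N2 and 2.26 ± 0.419% (n = 2) in heated daf-16, and the values of the strains lay far apart. With 2 libraries a group an exact permutation test cannot reach a p of 0.05, and none was run. The transcript of pqm-1 was at 33 and 32.4 CPM in N2 and at 61.5 and 40.1 CPM in daf-16, higher in both mutant libraries, and did not pass the test (0.63 ± 0.17, adjusted p 0.0954). Its call depended on the tool and on 1 library. DESeq2 called pqm-1 (adjusted p 0.0291), as did edgeR without the heated daf-16 replicate 3 (0.91, adjusted p 0.00528), whereas without the heated daf-16 replicate 2 its difference was 0.29 (0.369).

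Of 14286 genes tested, 157 differed between the strains after heat at an adjusted p under 0.05, which is 1.1% of the genes. Of these, 81 were lower in daf-16 (0.567% of genes tested) and 76 higher (0.532%). Most differences were modest. The median size was 0.75 on the log2 scale for the lower genes and 0.74 for the higher genes. At least 2-fold differences were seen for 29 lower and 27 higher genes, and at least 4-fold differences for 10 lower and 4 higher genes. In each of the 157 genes both mutant libraries lay on the same side of both N2 libraries, and this was also true of 42.1% of all genes tested. An unadjusted p under 0.05 was found for 2415 genes (16.9%). The number of calls depended on single libraries. It was 50 without the heated daf-16 replicate 2, 383 without the heated daf-16 replicate 3, 224 without the heated N2 replicate 2 and 34 without the heated N2 replicate 3. Of the 157 genes, 40, 123, 102 and 32 were called in these 4 fits, and 27 were called in all of them, 17 lower and 10 higher. No gene of the 157 changed direction in them. That could be foreseen, since in each gene both mutant libraries lay on the same side of both N2 libraries. Scaling to library size alone gave 236 calls, of which 21.6% were higher in daf-16, against 48.4% of the 157, and moved the median of all genes from 0.01 to -0.07.

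**Figure D1:**
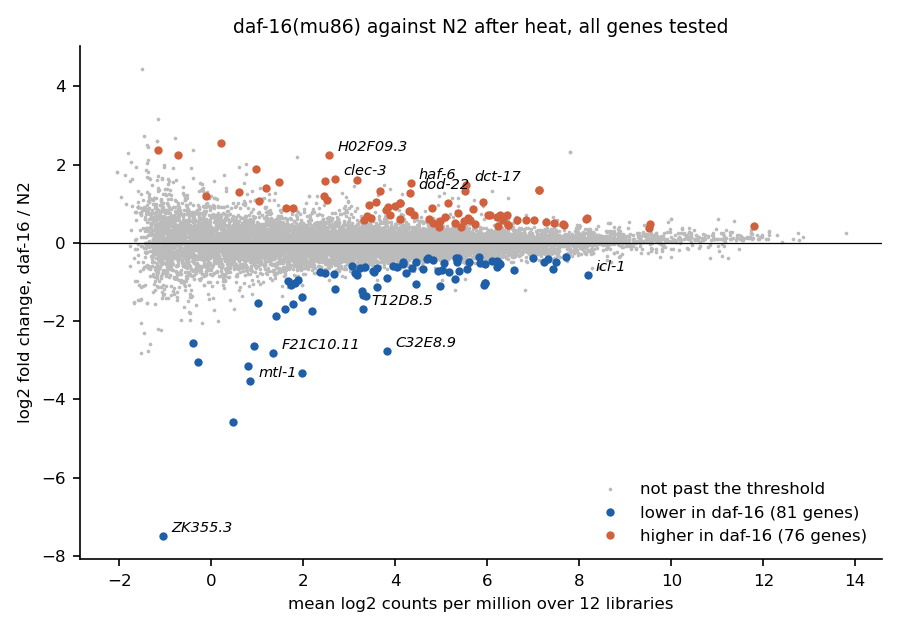
Each point is 1 of 14286 genes, with its mean log2 CPM over the 12 libraries fitted on the x axis and its fitted log2 fold change, daf-16 over N2 after heat, on the y axis. The 81 genes lower in daf-16 are blue and the 76 higher genes are red; the lowest, ZK355.3, had no reads in the mutant and its fitted value is not a bound.

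Several class I genes were lower in the mutant. Of 15 tested members of a list of 18, 4 were called lower (mtl-1, nnt-1, icl-1 and ctl-1), none was called higher, and 14 had a negative log2 fold change. DESeq2 called 7 of them and edgeR with scaling to library size alone called 6, and without single libraries edgeR called 1 to 5. The list's median was -0.54, against 0.01 over all genes tested. Of all 14286 genes tested, 6798 (47.6%) were negative, 7486 were positive, 0.567% were called lower and 0.532% higher. The sign counts of the later lists have the same background. The list was drawn up with earlier results of these libraries known, so its direction is a description. The listed symbols sodh-1, scl-1 and gpd-2 had no tested gene, and adh-1, taken here to be sodh-1, is described below. The called members are known for metal binding, mitochondrial redox balance, the glyoxylate cycle and the breakdown of hydrogen peroxide.

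The metallothionein gene mtl-1, a metal-binding stress protein, had the largest difference of the list. It was at 6.09 and 5.47 CPM in the N2 libraries and at 0.384 and 0.587 CPM in the mutant libraries (146 and 187 counts against 7 and 13). Both mutant values were close to the level of the unheated N2 libraries used (0.299 and 0.417 CPM), and the heated strains did not overlap. A library left out, labelled N2 at 35 °C replicate 1, had little of the heat-induced hsp-16.2 (0.417 CPM, scaled to the library total). In it mtl-1 was at 4.45 CPM, so the low level of mtl-1 in unheated N2 rests on the libraries used. The gene was 11.6-fold lower in the mutant (log2 fold change -3.53 ± 0.39, adjusted p 0.00107), and the call held without each of the 4 libraries (-3.89 to -3.28). The related metallothionein mtl-2, a gene of the intestine, was at 28 and 28.5 CPM in N2 and 23.5 and 26.5 CPM in daf-16, and did not pass (-0.18, adjusted p 0.311).

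The gene nnt-1 encodes the nicotinamide nucleotide transhydrogenase, which supplies NADPH in mitochondria. It was at 5.8 and 5.06 CPM in N2 and at 1.43 and 1.76 CPM in daf-16 (log2 fold change -1.75 ± 0.31, adjusted p 0.0191). Both mutant libraries were below both N2 libraries. Its estimated count was not whole in 11 of the 12 libraries, as happens when a read has several matches, which makes its level uncertain, and it overlaps another coding gene, C15H9.9. Its adjusted p was 0.0999 without the heated daf-16 replicate 2 and 0.0811 without the heated N2 replicate 3. The bifunctional glyoxylate cycle enzyme gene icl-1, which lets worms make sugar from fat, was at 297 and 439 CPM in N2 and at 221 and 196 CPM in daf-16 (-0.82 ± 0.16, adjusted p 0.0301). Here the N2 libraries differed among themselves by more than the mutant libraries did. Without the heated N2 replicate 3, which held the higher value, the difference in icl-1 was -0.52 (adjusted p 0.161). It was also not called without the heated daf-16 replicate 2 (0.0741) or replicate 3 (0.067).

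The catalases ctl-1, ctl-2 and ctl-3, which break down hydrogen peroxide, lie beside each other in similar copies. The cytosolic catalase gene ctl-1 was at 75 and 87.8 CPM in N2 and 50.9 and 63.6 CPM in daf-16 (log2 fold change -0.51 ± 0.11, adjusted p 0.0462). For ctl-3 the values were 63.8 and 73.4 CPM against 45.8 and 52.6 CPM (-0.48 ± 0.09, adjusted p 0.029). The peroxisomal ctl-2 was at 156 and 185 CPM in N2 and 113 and 139 CPM in daf-16 and did not pass (-0.44, adjusted p 0.0855). The 3 genes moved by like amounts, with both mutant libraries below both N2 libraries in each, but their counts were not whole in 11, 9 and 10 of the 12 libraries, and they may share reads. Neither ctl-1 nor ctl-3 was called without the heated daf-16 replicate 2 (adjusted p 0.185 and 0.139) or without the heated N2 replicate 3 (0.249 and 0.181).

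Among class I members that did not pass, the superoxide dismutase gene sod-3, a common reporter of DAF-16 activity, was at 4.67 and 5.03 CPM in N2 and 3.12 and 3.52 CPM in daf-16 (-0.54, adjusted p 0.121). The small heat shock gene sip-1 was at 298 and 318 CPM against 153 and 244 CPM (-0.64, adjusted p 0.126), and lea-1, a desiccation-protection gene, at 616 and 591 CPM against 450 and 403 CPM (-0.50, adjusted p 0.0814). In all 3, both mutant libraries were below both N2 libraries. The small heat shock genes hsp-12.6 (-1.14, adjusted p 0.152) and hsp-12.3 (-0.84, adjusted p 0.0953) did not pass either. The non-coding RNA tts-1 gave overlapping values, 159 and 116 CPM against 136 and 118 CPM. The one positive value was that of old-1, a receptor tyrosine kinase gene (0.19, adjusted p 0.882). The alcohol dehydrogenase gene adh-1, taken here to be the listed sodh-1, was noticed after its values were seen and is not in the list's counts. It was at 30 and 33.9 CPM in N2 and 20 and 19.4 CPM in daf-16 (-0.70 ± 0.15, adjusted p 0.0431), and it overlaps sodh-2. Its adjusted p was 0.225 without the heated N2 replicate 3, 0.126 without daf-16 replicate 2 and 0.0827 without daf-16 replicate 3.

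**Figure D2:**
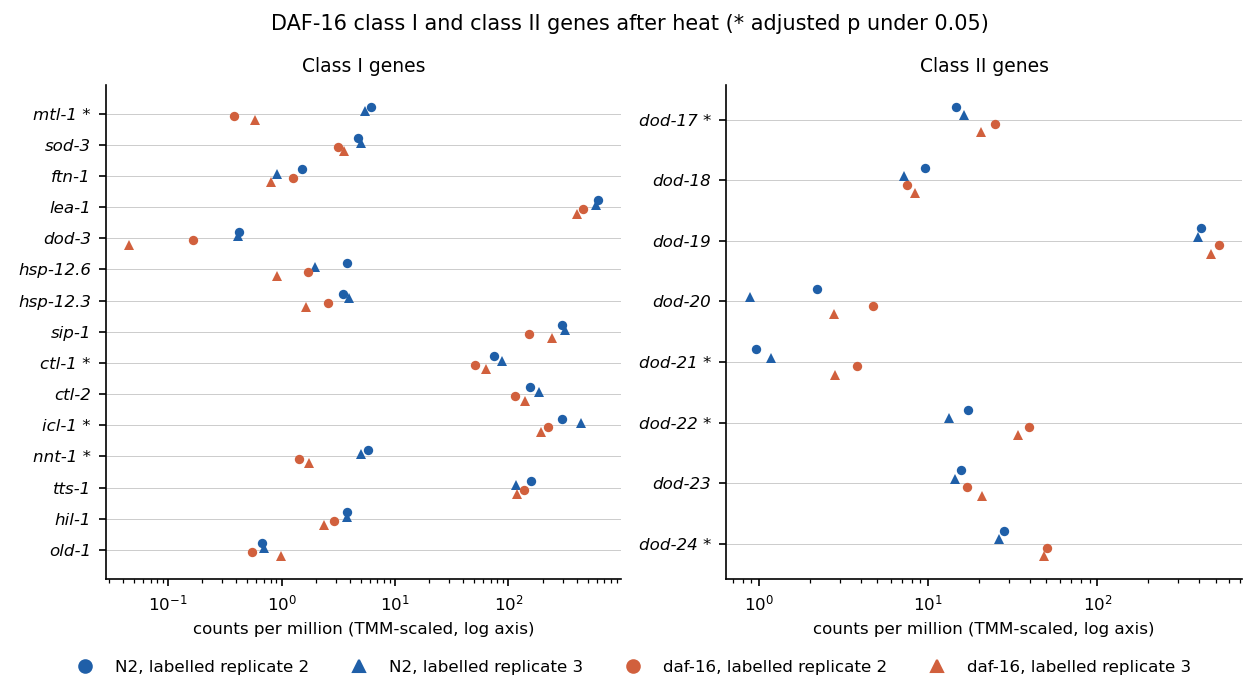
Each row is a tested gene of the class I list (left) or class II list (right), with its CPM after heat on a log axis in each of the 4 libraries; N2 is blue, daf-16 red, circles are the libraries labelled replicate 2, triangles replicate 3, and an asterisk marks an adjusted p under 0.05. In mtl-1 the mutant libraries sit at 0.384 and 0.587 CPM, and in dod-22 at 39.2 and 33.8 CPM, clear of N2 on opposite sides.

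Several class II genes were higher in the mutant. All 8 listed genes were tested, and 4 were called higher (in order of size dod-21, dod-22, dod-24 and dod-17), none lower, and 7 had a positive log2 fold change. The median was 0.71, against 0.01 over all genes tested. These genes were named as downstream of DAF-16, and dod-24, dod-22 and dod-17 encode secreted-type proteins with CUB-like domains that are known from the response to infection.

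The gene dod-22 was at 17.1 and 13.3 CPM in N2 and at 39.2 and 33.8 CPM in daf-16. Both mutant libraries were more than 1.5 times above the higher N2 library (log2 fold change 1.27 ± 0.14, adjusted p 0.00107), and the gene stayed called without each library (1.09 to 1.44). For dod-24 the values were 28.2 and 26.2 CPM against 50.5 and 48.2 CPM (0.86 ± 0.11, adjusted p 0.00282). It also stayed called without each library (0.81 to 0.90). The lowly expressed dod-21 was at 0.96 and 1.17 CPM in N2 and 3.78 and 2.8 CPM in daf-16 (1.59 ± 0.22, adjusted p 0.0058). The strains did not overlap in any of these genes. The weakest call was dod-17, at 14.6 and 16.3 CPM against 24.9 and 20.6 CPM (0.55 ± 0.12, adjusted p 0.0462). Without the heated daf-16 replicate 2, N2 replicate 2 or N2 replicate 3, the adjusted p of dod-17 was 0.195, 0.128 and 0.118, and it was 0.0623 with scaling to library size alone. The most counted member, dod-19, was at 410 and 395 CPM against 521 and 469 CPM and did not pass (0.30, adjusted p 0.138). For dod-18 the values of the strains overlapped (-0.07, adjusted p 0.879).

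The 15 largest falls among called genes with a mean log2 CPM of at least 1 ranged from 1.12 to 3.33 on the log2 scale. That mean was taken over the 12 libraries fitted, and genes with larger falls, such as mtl-1 (-3.53), lay under it. Besides nnt-1 the 15 were dlhd-1, F21C10.11, C32E8.9, T05F1.11, T12D8.5, F15B9.6, sdz-24, K10D3.6, C54F6.5, icmt-1, B0281.3, scl-2, hda-5 and T05C3.6. Many have only a sequence name. Those with a known kind of product include hda-5 (a histone deacetylase), icmt-1 (a methyltransferase that acts on prenylated proteins) and scl-2 (a secreted protein of the SCP family).

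The smallest adjusted p of the comparison was that of C32E8.9. The gene was at 15.8 and 18.6 CPM in N2 and at 2.19 and 2.8 CPM in daf-16, a 6.85-fold lower level (log2 fold change -2.78 ± 0.16, adjusted p 7.56e-06). F21C10.11 was at 6.26 and 5.97 CPM against 0.877 and 0.858 CPM (-2.81 ± 0.23, adjusted p 0.000156). T12D8.5 was at 20.2 and 19.4 CPM against 5.54 and 6.64 CPM (-1.69 ± 0.16, adjusted p 0.000466). These 3 genes overlap other coding genes (C32E8.1, F21C10.13 and taf-9 in turn), as T05F1.11 does (lab-1), and shared reads were not tested. In these 3 genes the libraries of a strain lay close together and the strains far apart, and each stayed called without each library. So did T05F1.11 (-1.87), icmt-1 (-1.36), B0281.3 (-1.32), C54F6.5 (-1.38) and T05C3.6 (-1.12). The deacetylase gene hda-5 was at 3.88 and 5.15 CPM in N2 and 1.75 and 2.26 CPM in daf-16 (-1.17 ± 0.18, adjusted p 0.0104), and was not called without the heated daf-16 replicate 2 (0.0775) or N2 replicate 3 (0.101). Replicates differed most in dlhd-1, at 4.34 and 10.8 CPM in N2 and 0.384 and 1.08 CPM in daf-16 (-3.33 ± 0.51, adjusted p 0.00971). It was not called without the heated daf-16 replicate 2 (0.068) or N2 replicate 3 (0.0591). K10D3.6 (-1.53, adjusted p 0.0278) lost its call when any of the 4 libraries was left out, with an adjusted p between 0.0558 and 0.105.

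**Figure D3:**
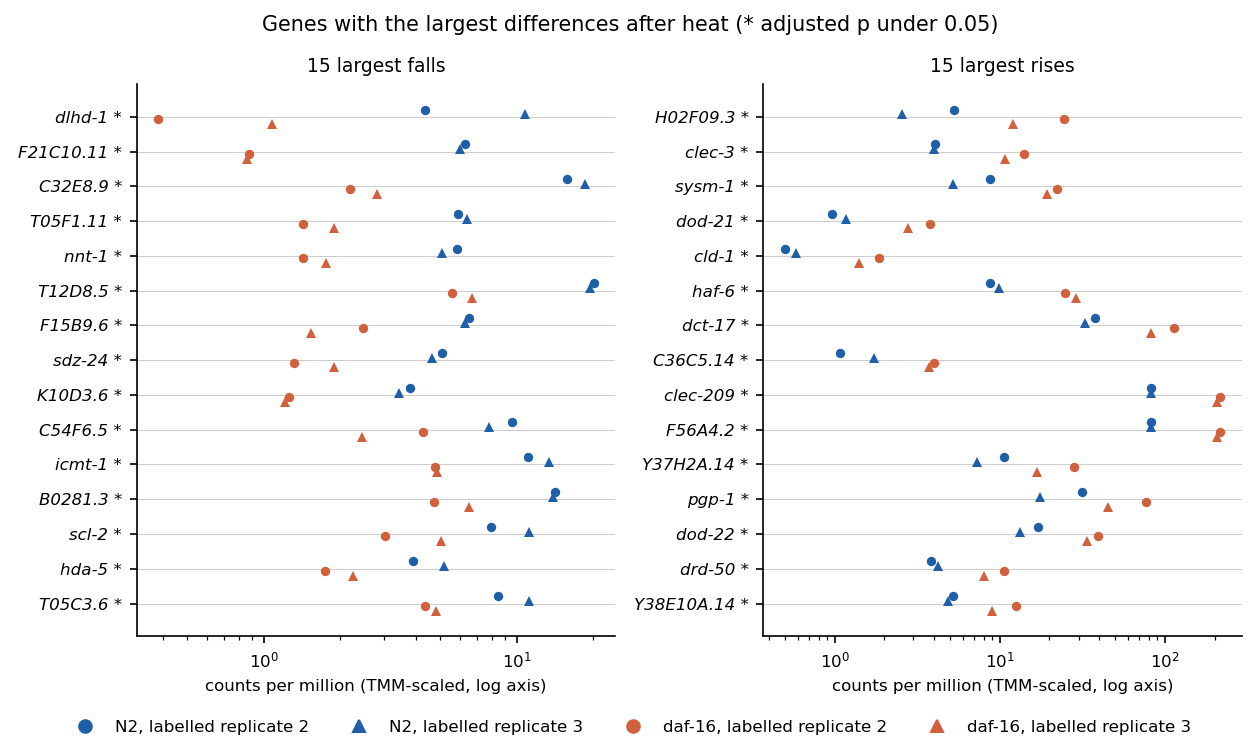
CPM after heat (log axis) in each of the 4 libraries for the 15 largest falls (left) and the 15 largest rises (right) among called genes with a mean log2 CPM of at least 1 over the 12 libraries fitted. Colours mark the strain and shapes the labelled replicate. The strains do not overlap in any row, as the rule for choosing them requires, and in C32E8.9 and haf-6 the gap between strains is wide against the gap between replicates.

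Further genes called lower, chosen for description after their values were seen, encode digestive and secreted proteins, peptides and enzymes. The saposin-like gene spp-2, of a family with antimicrobial members, was at 44.6 and 43.1 CPM in N2 and 18.8 and 21.9 CPM in daf-16 (log2 fold change -1.1 ± 0.09, adjusted p 0.000156). The cystatin gene cpi-1, an inhibitor of cysteine proteases, was at 159 and 151 CPM against 99.6 and 91.9 CPM (-0.70 ± 0.08, adjusted p 0.00113). Both stayed called without each library. The hydroxyacyl-CoA dehydrogenase gene hacd-1, of fatty acid breakdown, was at 27.8 and 37.8 CPM in N2 and 13.8 and 17.4 CPM in daf-16 (-1.08 ± 0.14, adjusted p 0.00334). The insulin-like peptide gene ins-26 was at 4.51 and 4.47 CPM against 2.08 and 2.3 CPM (-1.03 ± 0.15, adjusted p 0.00933). In each of these 4 genes both mutant libraries stood below both N2 libraries. Of the 20 tested ins- genes, ins-26 was the one called. Its call depended on single libraries, without which its difference was -1.11 to -0.96. Of 34 symbol families examined, 17 held no call. Over all genes tested, 0.567% were called lower. Of 52 tested genes of the transthyretin-related ttr- family, 4 were called lower (ttr-44, ttr-45, ttr-48 and ttr-51) and none higher, with a family median of -0.14. These 4 calls also depended on single libraries. Without them the differences were -1.12 to -0.68 for ttr-44, -0.56 to -0.52 for ttr-45, -0.59 to -0.35 for ttr-48 and -0.53 to -0.48 for ttr-51. The fatty acid and retinol binding protein gene far-3 (-1.06), the nuclear receptor gene nhr-76 (-0.63), the cytochrome P450 gene cyp-35A2 (-0.51), the S-adenosylmethionine synthetase gene sams-5 (-0.63) and the glucuronosyltransferase genes ugt-17 (-0.64) and ugt-41 (-0.77) were also called lower. None of them was called in all 4 fits that left out a heated library. Of these, far-3 and ugt-41 lost their calls when any of the 4 libraries was left out.

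The 15 largest rises, chosen by the same rule, ranged from 1.09 to 2.25 on the log2 scale. They were H02F09.3, clec-3, sysm-1, dod-21, cld-1, haf-6, dct-17, C36C5.14, clec-209, F56A4.2, Y37H2A.14, pgp-1, dod-22, drd-50 and Y38E10A.14. Among them, haf-6 and pgp-1 encode ABC transporters, clec-3 and clec-209 C-type lectin domain proteins, and sysm-1 a ShK-type secreted peptide known as a reporter of immune signalling. The mean over the 12 libraries also counts the pqm-1 strain, where heated cld-1 was at 6.11 and 6.7 CPM. In the libraries compared cld-1 was at 0.501 and 0.585 CPM in N2 and 1.86 and 1.4 CPM in daf-16. The called gene clec-45 (1.90) fell short of that mean and was left out.

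The half-molecule ABC transporter gene haf-6 was at 8.68 and 9.91 CPM in N2 and at 25 and 29 CPM in daf-16, 2.9-fold higher (log2 fold change 1.53 ± 0.11, adjusted p 7.78e-05). The gene dct-17, named as controlled by DAF-16, was at 37.7 and 32.8 CPM against 113 and 82.3 CPM (1.47 ± 0.16, adjusted p 0.00107). The lectin gene clec-3 was at 4.05 and 4.01 CPM against 14.1 and 10.8 CPM (1.62 ± 0.17, adjusted p 0.00107). Of the 3 genes, haf-6 overlaps the coding gene Y48G8AL.7 and clec-3 overlaps C41H7.2. Both mutant libraries exceeded both N2 libraries at more than 2 times their level in each of the 3, and all 3 stayed called without each library. H02F09.3, which overlaps the coding gene H02F09.2, was at 5.26 and 2.57 CPM in N2 and 24.5 and 12 CPM in daf-16 (2.25 ± 0.35, adjusted p 0.0102). Its replicates differed widely within both strains. It was not called without the heated daf-16 replicate 2 (0.0508) or N2 replicate 3 (0.1). The P-glycoprotein gene pgp-1 was at 31.4 and 17.4 CPM against 76.5 and 45 CPM (1.32 ± 0.27, adjusted p 0.0403) and was not called without the same libraries (0.164 and 0.215). The peptide gene sysm-1 was at 8.68 and 5.24 CPM against 22.3 and 19.3 CPM (1.60 ± 0.26, adjusted p 0.0137), and likewise lost its call (0.0638 and 0.118). The counts of clec-209 and F56A4.2 were identical, so they are 1 measurement (82.4 and 82.6 CPM against 216 and 207 CPM, 1.36 ± 0.23, adjusted p 0.0144). The call was lost without N2 replicate 2 (0.0532), N2 replicate 3 (0.113) or daf-16 replicate 2 (0.0638). Of 129 tested genes with clec- symbols, 3 were called higher, clec-3, clec-45 and clec-209, none lower, and the family median was -0.03. Over all genes tested, 0.532% were called higher.

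Of 14 listed genes of larval moulting, 2 were called higher (mlt-8 and ptr-4) and none lower. Positive values were found for 13, and the median was 0.35, against 0.01 over all genes tested. In the 20 °C libraries 10 of the 14 were called higher and the median was 0.64. The moulting gene mlt-8 was at 178 and 175 CPM in N2 and 259 and 227 CPM in daf-16 (log2 fold change 0.46 ± 0.09, adjusted p 0.0361). The patched-related ptr-4 was the 1 gene called of 21 tested ptr- genes, whose median was 0.11. It was at 66.7 and 63 CPM against 90.6 and 84.8 CPM (0.44 ± 0.09, adjusted p 0.0462). Both mutant libraries were above both N2 libraries in each. Neither was called without the heated daf-16 replicate 2 (0.16 and 0.164), N2 replicate 2 (0.0751 and 0.075) or N2 replicate 3 (0.168 and 0.228), nor with scaling to library size alone. Further called genes, chosen after their values were seen, were the collagen gene sqt-3 (625 and 658 CPM against 962 and 832 CPM, 0.48), the hedgehog-related wrt-6 (46.6 and 41.2 CPM against 75.8 and 68.9 CPM, 0.72), grl-5 (0.58), grl-7 (0.52) and grl-15 (0.49), and the surface glycosylation genes bus-5 (0.60) and bus-8B (0.56). Of the tested grl-, wrt- and bus- genes, 3 of 16, 1 of 9 and 2 of 13 were called, all higher, where 0.532% of all genes tested were called higher. These families, like ptr-, were picked after the values were seen, so their counts are descriptions. With scaling to library size alone 1 of 16, 1 of 9 and 2 of 13 were called, and sqt-3 was not (adjusted p 0.0518). None of these 7 genes was called without the heated daf-16 replicate 2 or without the heated N2 replicate 3 (adjusted p 0.0638 to 0.215), and sqt-3 and grl-7 were also lost without N2 replicate 2 (0.0913 and 0.0722). None of 123 tested col- collagen genes was called (median -0.01), while DESeq2 called 4, scaling to library size alone gave 3 lower, and 38 had an unadjusted p under 0.05. At 20 °C 16 col- genes were called higher and 1 lower (median 0.30), and 5 of the 9 wrt- genes were called higher. Markers of the hypodermis, the tissue that makes the cuticle, gave a median of 0.05 over 8 genes with no call after heat (col-12 was called without the heated daf-16 replicate 2, adjusted p 0.0298) and a median of 0.30 with 4 called higher at 20 °C. After heat their summed level was 2954 and 3299 CPM in N2 and 2976 and 2733 CPM in daf-16.

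No listed cytosolic heat shock gene passed the edgeR test between the strains. All 15 tested had a positive log2 fold change, with a median of 0.26, and 7 had an unadjusted p under 0.05. They are fewer than 15 measurements. The counts of hsp-16.1 and hsp-16.11 were identical, as were those of hsp-16.48 and hsp-16.49 and of F44E5.4 and F44E5.5. Each member of such a pair is counted here. The summed level of the list overlapped between strains, at 17059 and 13227 CPM in N2 and 22792 and 16103 CPM in daf-16. DESeq2 called none. The count of 0 depended on single libraries: without the heated daf-16 replicate 3, 5 were called higher (F44E5.4 and F44E5.5 at an adjusted p of 0.0074, hsp-1 at 0.0235, hsp-70 at 0.0291 and hsp-110 at 0.0394), and without the heated N2 replicate 2 the F44E5.4 and F44E5.5 pair was called (0.0367). The inducible hsp-70 was at 136 and 40.8 CPM in N2 and at 342 and 95.9 CPM in daf-16 (1.31 ± 0.51, adjusted p 0.227). The replicates of each strain differed by more than 3 times, and the strains overlapped. The pair F44E5.4 and F44E5.5, Hsp70 copies with identical counts, was at 269 and 67.4 CPM against 1404 and 281 CPM (2.33 ± 0.64, adjusted p 0.107). A small heat shock gene, hsp-16.2, was at 462 and 257 CPM against 577 and 327 CPM (0.33, adjusted p 0.584), and the constitutive hsp-1 at 4777 and 4439 CPM against 6106 and 5297 CPM (0.31, adjusted p 0.0857). In all 4 libraries hsp-16.2 was far above the unheated libraries used, whose highest value was 0.42 CPM. Among chaperones of organelles, 1 of 14 was called (4 without the heated daf-16 replicate 3): hsp-3, a BiP of the endoplasmic reticulum, at 662 and 713 CPM in N2 and 930 and 845 CPM in daf-16 (0.37 ± 0.08, adjusted p 0.0436). Without the heated daf-16 replicate 2, N2 replicate 2 or N2 replicate 3 its adjusted p was 0.185, 0.135 and 0.106. The small heat shock family member hsp-17, not on the lists and noticed after its values were seen, was called higher at 115 and 118 CPM against 170 and 148 CPM (0.45 ± 0.08, adjusted p 0.0259). Its adjusted p was 0.0784 without N2 replicate 2, 0.113 without N2 replicate 3 and 0.131 without daf-16 replicate 2.

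In metabolism and redox defence single genes were called, and the medians of the lists lay near 0. Of 19 antioxidant genes, 3 were called lower (ctl-1, ctl-3 and gst-4), none higher, and the median was -0.04. The glutathione S-transferase gene gst-4, a reporter of the stress factor SKN-1, was at 13.2 and 13 CPM in N2 and 8.88 and 8.17 CPM in daf-16 (-0.62 ± 0.12, adjusted p 0.0352). Its adjusted p lay between 0.0632 and 0.132 without single libraries. Another transferase gene, gst-24, was called higher, at 22.7 and 21.4 CPM against 45 and 32.1 CPM (0.80 ± 0.17, adjusted p 0.0431). It was not called with scaling to library size alone (0.0528), nor without N2 replicate 2 (0.0809), N2 replicate 3 (0.219) or daf-16 replicate 2 (0.178). Of 19 tested genes of carbon and sugar metabolism 2 were called lower, icl-1 and nnt-1, with a median of -0.09. Of 22 tested genes of fatty acid metabolism, 1 was called: fat-7, a delta-9 desaturase that makes oleate, was higher at 69.5 and 70.1 CPM in daf-16 against 42 and 43.6 CPM in N2 (0.70 ± 0.11, adjusted p 0.0102). The mutant libraries were nearly equal and clear of N2. Its close relative fat-6 overlapped between strains (0.17, adjusted p 0.629), and fat-7 was not called without the heated daf-16 replicate 2 (0.0508) or N2 replicate 3 (0.0782).

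The other lists held few calls or none. No tested gene of insulin signalling was called by edgeR or DESeq2 (0 of 15, median -0.00, with 1 at an unadjusted p under 0.05). The kinase gene akt-1 was at 91.2 and 87.6 CPM against 69.6 and 76.8 CPM (-0.29, adjusted p 0.107), and was called lower with scaling to library size alone (0.0441). No stress transcription factor was called by edgeR (0 of 15, median 0.13, with 4 at an unadjusted p under 0.05). DESeq2 called pqm-1, as did edgeR without the heated daf-16 replicate 3, together with elt-2 (0.0132) and xbp-1 (0.028). The heat shock factor gene hsf-1 was at 56.1 and 57.4 CPM in N2 and 52.7 and 63.3 CPM in daf-16 (0.03, adjusted p 0.911). None of 4 vitellogenins was called by edgeR or DESeq2, and 2 had an unadjusted p under 0.05. In the yolk gene vit-4 the heated daf-16 replicate 3 had the highest value, 1471 CPM against 902 CPM in the other mutant library and 775 and 771 CPM in N2. Oocyte and eggshell markers followed the same library, with summed levels of 2548 and 3903 CPM in daf-16 and 2905 and 3221 CPM in N2. The part of this difference between libraries in the strain differences was not tested. At 20 °C the oocyte and eggshell markers had a median of -0.54, with 1 called lower. The medians of the other lists of tissue markers were -0.08 to 0.30 at 20 °C. Among the 8 lists of tissue markers 1 gene was called after heat, ges-1, the gut esterase, at 34.2 and 43.3 CPM in N2 and 22.4 and 24.8 CPM in daf-16 (-0.72 ± 0.11, adjusted p 0.0102). It was not called without the heated daf-16 replicate 2 (0.0735) or N2 replicate 3 (0.0811). The 10 intestine markers had a median of -0.08, with the summed level at 3987 and 4968 CPM in N2 and 4704 and 4827 CPM in daf-16. The gut factor elt-2 was at 25.5 and 40.5 CPM against 14.1 and 27.8 CPM (-0.65, adjusted p 0.211). Muscle (median 0.03), neuron (0.06), germline (-0.05), oocyte (0.08), sperm (-0.19) and embryo (0.10) markers gave no call with edgeR or DESeq2, and 1 neuron and 2 embryo markers had an unadjusted p under 0.05. Sperm markers were negative in 10 of 10 tested genes, as were 25 of 25 major sperm protein genes (median -0.24). No call was among them, and how many are separate measurements was not tested. Of these, 3 sperm markers and 16 major sperm protein genes had an unadjusted p under 0.05, and DESeq2 called none. Without N2 replicate 2, 2 sperm markers were called. With scaling to library size alone, 1 sperm marker and 6 major sperm protein genes were called lower, and the medians of the muscle and neuron markers turned to -0.05 and -0.02.

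**Figure D4:**
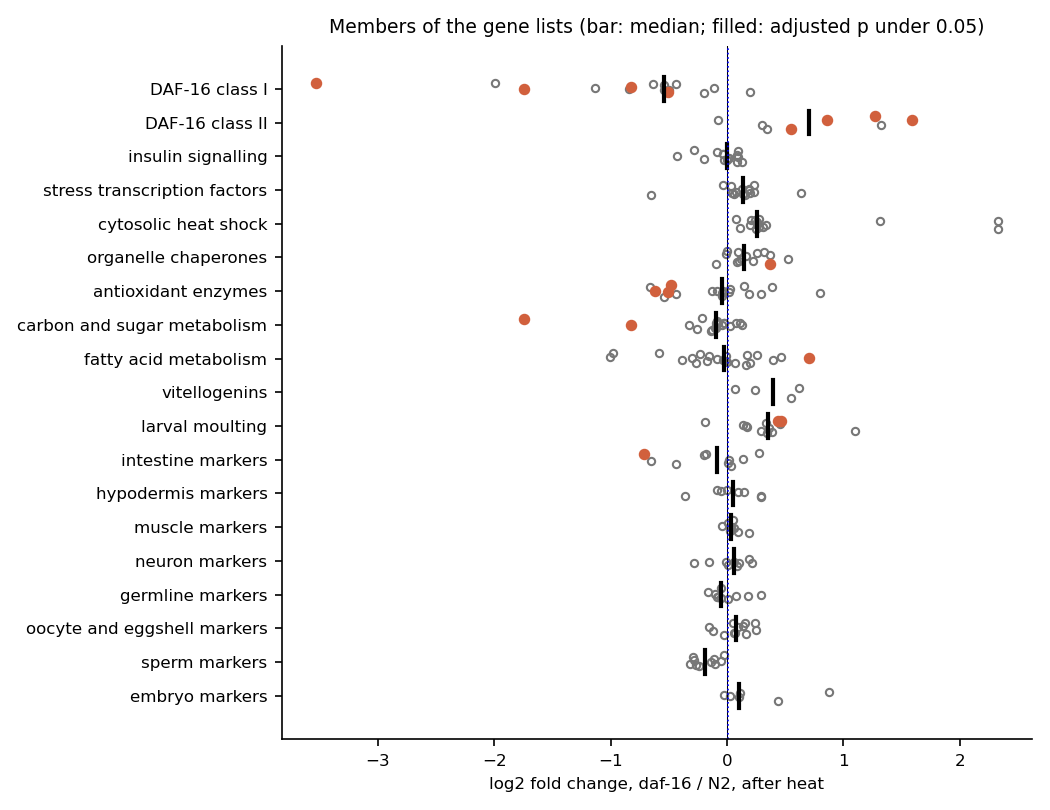
Each circle is a tested member of a list, placed by its log2 fold change (daf-16 over N2 after heat) on the x axis; black bars are list medians, filled circles passed the test, and the dotted line is the median of all genes tested. Class I and class II lie to the left and right with medians of -0.54 and 0.71, and the marker lists lie near 0.

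The libraries kept at 20 °C, 2 of each strain, share no sample with the heated ones and show how far the differences were already present without heat. In them 360 genes differed between the strains (2.52% of genes tested), 243 higher (1.7%) and 117 lower (0.819%) in daf-16. This count also depended on single libraries, at 5 without the 20 °C daf-16 replicate 2, 48 without N2 replicate 2 and 27 without N2 replicate 3. Of the genes called after heat, 37 were also called at 20 °C, all in the same direction, which is 23.6% of the calls after heat and 10.3% of those at 20 °C. The lower genes had the same sign at 20 °C in 63 of 81 cases (77.8%, where 49.3% of all genes were lower) and a median of -0.23 there against -0.75 after heat. The higher genes had the same sign in 67 of 76 cases (88.2%, where 50.6% of all genes were higher) and a median of 0.35 against 0.74. The smaller size at 20 °C is in part set by the choice of genes, which were called for their difference after heat.

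C32E8.9 and haf-6 differed at both temperatures. At 20 °C C32E8.9 was at 24.2 and 22.9 CPM in N2 and 2.13 and 2.7 CPM in daf-16 (log2 fold change -3.28, adjusted p 5.73e-07), against -2.78 after heat. The transporter gene haf-6 was at 9.87 and 10.8 CPM in N2 and 52.3 and 53.6 CPM in daf-16 at 20 °C (2.35, adjusted p 5.73e-07), a larger gap than after heat (1.53). The class II gene dod-24 also differed at both (0.84 at 20 °C, adjusted p 0.00964, and 0.86 after heat).

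In other genes the strain difference was called after heat and did not pass at 20 °C. The metallothionein gene mtl-1 was at 0.299 and 0.417 CPM in N2 and 0.0945 and 0.193 CPM in daf-16 at 20 °C (-1.31, adjusted p 0.392). It was low in the 4 libraries used. The left-out library labelled N2 at 35 °C replicate 1, which was low in hsp-16.2, had mtl-1 at 4.45 CPM. The protease inhibitor gene cpi-1 was at 60.3 and 60.7 CPM against 57.9 and 56.5 CPM at 20 °C (-0.08, adjusted p 0.623). With heat it rose by 1.36 on the log2 scale in N2 and by 0.74 in daf-16. The gene T12D8.5 rose by 1.48 in N2 with heat (adjusted p 3.35e-05), and its change in daf-16 was 0.44 (adjusted p 0.0808). The gut esterase gene ges-1 was at 42.5 and 46.7 CPM against 46.6 and 43.1 CPM at 20 °C, and fell with heat by 0.93 in daf-16, with a change of -0.20 in N2 (adjusted p 0.168). For dct-17 the 20 °C values were 16.9 and 21.7 CPM against 21.7 and 21.2 CPM (0.15, adjusted p 0.677), and it rose with heat by 2.19 in daf-16 and by 0.87 in N2. The desaturase gene fat-7 fell with heat in both strains, by 1.36 in N2 and by 0.69 in daf-16. With heat, 34.7% of all genes tested were called in N2 and 33% in daf-16. These heat contrasts share their libraries with the strain contrasts.

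The difference between the temperatures was itself tested, as the interaction of heat and strain. No gene passed with edgeR (0 of 14286, smallest adjusted p 0.14), while 2128 had an unadjusted p under 0.05 (14.9%) and DESeq2 called 62. Without the heated daf-16 replicate 2 edgeR called 75 genes, and without the heated daf-16 replicate 3 it called 18. Unadjusted p-values were 0.000121 for cpi-1, 9.81e-05 for dct-17, 0.000941 for T12D8.5, 0.00053 for ges-1 and 0.0551 for mtl-1. These genes were chosen with their difference after heat in view, which enters this contrast, and none is shown here to respond differently to heat.

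**Figure D5:**
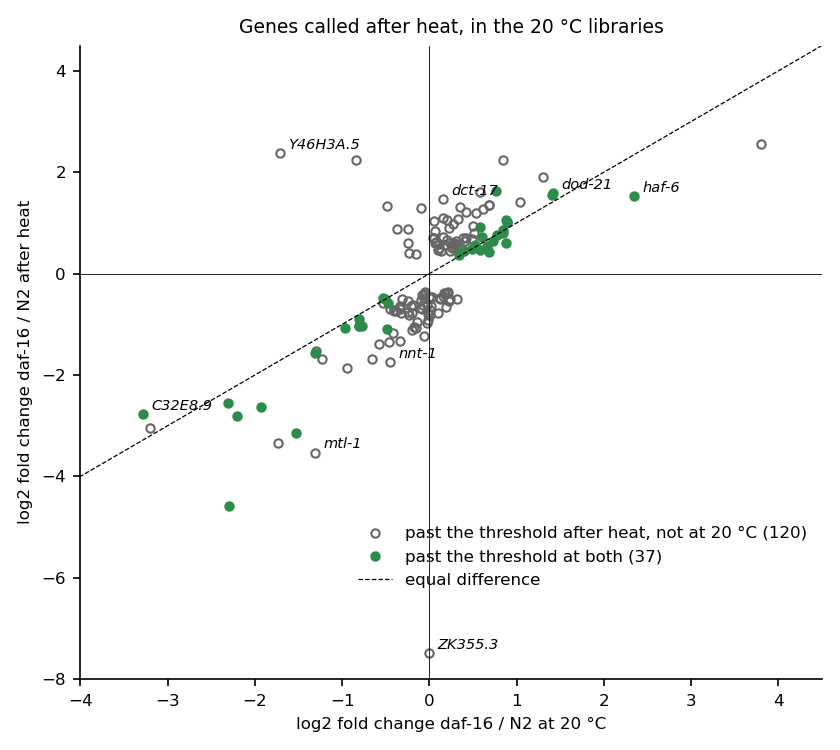
Each circle is a gene called between the strains after heat, with its log2 fold change (daf-16 over N2) in the 20 °C libraries on the x axis and after heat on the y axis; filled circles were also called at 20 °C, and the dashed line marks equal differences. All 37 filled circles lie in the lower left or upper right corner, and mtl-1, nnt-1 and dct-17 lie nearer to 0 on the x axis than on the y axis.

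The pqm-1 strain after heat, compared with the same N2 libraries, gave 35 calls (0.245% of genes tested), 30 higher (0.21%) and 5 lower (0.035%), and its values are set side by side with those of daf-16, since both contrasts share their controls. Of the class II genes, dod-22 and dod-21 passed in both mutants, at 0.91 and 3.58 in pqm-1 and at 1.27 and 1.59 in daf-16. For dod-24 and dod-17 the pqm-1 values were 0.15 and 0.29, without a call. The gene dct-17 was at 1.29 in pqm-1 (adjusted p 0.0036) and 1.47 in daf-16. The saposin-like spp-23 was at 1.24 (adjusted p 2.4e-05) and 0.60, and the aspartyl protease gene asp-17 at 1.38 (adjusted p 0.000155) and 0.93. The related spp-2 was on opposite sides, at 0.69 in pqm-1 (adjusted p 0.0041) and -1.1 in daf-16. Of the largest differences of the daf-16 strain, C32E8.9 and haf-6 were at -0.06 and -0.04 in pqm-1, without a call. The class I gene mtl-1 was at -1.61 in pqm-1 (adjusted p 0.0561), with 1.67 and 2.12 CPM, between the values of N2 and daf-16.

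Some calls rest on few or shared reads. ZK355.3 had 26 and 31 counts in the heated N2 libraries and 0 in both mutant libraries, at least 6.64-fold lower when the mutant is set at a floor of 3 counts per library. It also had no reads in the 4 libraries of both strains at 20 °C. Y6G8.2 had 42 and 70 counts against 3 and 0. Among all calls, 42 lower and 36 higher genes had a count that was not whole in at least 1 library, 21 and 18 overlapped another coding gene, and 2 and 4 had counts identical to those of another gene. Called genes that are neighbours in gene order formed 6 pairs, each with both genes in the same direction: ctl-1 with ctl-3, ttr-51 with ttr-45, cld-1 with dod-21, F47H4.2 with Y20C6A.1, ZK228.3 with ZK228.4 and the overlapping fbxb-14 with W08F4.12. The counts of dod-21 were 192 to 203% of those of cld-1 in the 4 heated libraries, and whether the pair are separate measurements was not tested.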

How the data were processed

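RNA of whole worms was sequenced in 18 samples of 6 groups. The authors deposited 1 table of estimated counts per transcript, in which 13.3% of the non-zero values are not whole, as the file shows. The first of its 18 value columns, which is headed as replicate 1 of daf-16 at 20 °C, gives the lengths of the transcripts in the deposited table. The aligner, the counter, the genome build and the annotation are not given in the sources used here, and coordinates are therefore left out. Of 50755 rows, 45910 matched a gene of the RefSeq annotation of WBcel235 (39798 genes), and gene order came from the Ensembl annotation of that assembly. The other 4845 rows held 23.4 to 24.3% of the totals and were left out.

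Each gene was taken as its transcript with the highest mean, rounded to whole counts. The 12 libraries labelled replicate 2 and 3 were fitted together with edgeR 4.0.16 (R 4.3.3): TMM factors, filterByExpr, the quasi-likelihood test with 6 residual degrees of freedom, and Benjamini-Hochberg adjustment over the 14286 genes tested (25512 were not). The 5 count columns labelled replicate 1 entered an alternative. Gene totals ran from 18650463 to 33399557. On simulated counts for the comparison after heat, over 14085 genes with 200 changed, 91% of the 2-fold and 99% of the 4-fold changes were called, with 11 false calls. These shares belong to the simulated counts. They do not measure the power for the real libraries, where the number of calls depended on single libraries.

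Named were daf-16, pqm-1, list members that passed, the most counted member of each list, and the 15 largest rises and falls among called genes (adjusted p under 0.05) whose log2 CPM averaged 1 or more over the 12 libraries fitted and whose strains did not overlap. Others are named as chosen after their values were seen or stand as examples of their list. The comparison, the 19 lists and the 34 symbol families were chosen with earlier results of these data known, and the grl-, wrt-, ptr- and bus- families after the values were seen. Lists are described by counts and medians, with no set test. Alternatives were relative log expression factors, library size alone, no filter, a filter at a mean count of 10, DESeq2 1.42.0, only the groups compared, a replicate block, all count columns by header name, a fold threshold, the longest transcript, unmatched rows kept and leaving out single libraries. Figures were drawn with matplotlib 3.10.9.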

Additional observations from a re-analysis of the deposited data

Results flagged for a closer look

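Among the libraries that the comparisons leave out, 2 that carry a 20 °C label were high in hsp-16.2, whose product is a small chaperone made on heat. Its level, scaled to the library total, was 209 CPM in replicate 1 of N2 and 324 CPM in replicate 1 of the pqm-1 strain. The 20 °C libraries used reached at most 0.42 CPM, while those at 35 °C had at least 263 CPM. In the 3 libraries that carry a 35 °C label and the number 1, the highest value was 0.417 CPM. The libraries labelled replicate 1 thus went against their labels in this marker of heat, and no comparison above uses them. The library labelled N2 at 20 °C replicate 1 also held 2212 and 2263 counts in the daf-16 rows compared above, close together as in the mutant. That labelled pqm-1 at 20 °C replicate 1 had dod-21 at 1.49 CPM, against 10.5 and 11.6 CPM in replicates 2 and 3. Both resemble the strain whose columns stand just before, as names 1 column too early would give.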

How the results depend on the processing

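The 157 genes called after heat became 236 with library size alone (21.6% higher, against 48.4%, with the median of all genes moved to -0.07), 1095 with no filter on low counts, 25 with only the groups compared, 0 with all count columns by header names (784 at an unadjusted p under 0.05), 56 when a 2-fold size was also required, and 34 to 383 without single libraries. DESeq2 called 230 and the replicate block 185. None of the 157 changed direction under any alternative. Without single libraries that could be foreseen, since the strains did not overlap in any of these genes. The setting by header names adds the libraries labelled replicate 1, which went against their labels in hsp-16.2. Its 0 calls, after heat and at 20 °C, therefore cannot show how firm the calls are. The 360 genes at 20 °C became 1299, 182, 0 and 56 under no filter, only the groups compared, header names and the fold rule, and 5 to 261 without single libraries. The interaction of heat and strain, with 0 calls, gave 789 with no filter, 62 with DESeq2 and 0 to 75 without single libraries. The replicate numbers are not known to pair the libraries (correlation of deviations 0.215 between the heated strains, -0.243 to 0.085 between other groups). The replicate block gave 336 calls at 20 °C and 0 for the interaction.

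Of 945 values of named genes under alternatives, 745 kept direction and call, 174 lost and 16 gained the call, and 10 changed sign, all of genes without a call. These were daf-16 (0.23, longest transcript), col-19 (0.09, header names), unc-54 (-0.06 with library size, -0.00 with no filter, and -0.03 to 0.07 without single heated libraries, -0.02 among them), and, without single heated libraries, gpd-3 (-0.20 to 0.04), vit-2 (-0.04 to 0.47), asp-1 (-0.03 to 0.30) and cpg-2 (-0.53 to 0.14). Of the 157 calls, 18 held in each of the 13 alternatives that made calls and set no fold rule, 11 lower and 7 higher. The causes were not tested. The planned search of promoters for motifs was not run, since no promoter sequences were used here. Depth limits the low genes: a count of 3 was the floor.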
